A study of Mus musculus with 59 samples.

Results

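The comparison set mice heterozygous for a Dyrk1a mutation against wild-type mice among animals that had all received lithium. Its members were the 20 of 59 libraries whose labels name lithium: 10 heterozygous mice (5 females and 5 males) and 10 wild-type mice (5 females and 5 males), and sex was kept as a block. The heterozygous genotype is written Dyrk1a+/I48X in the labels, and every mouse was C57BL/6J. Pups took up lithium through the milk of the dam from postnatal day 3 to day 24, a treatment of 3 weeks, and RNA of the prefrontal cortex was sequenced from tissue of postnatal day 25. The other 39 libraries came from vehicle and fluoxetine mice of both genotypes, and they are used here only beside the lithium values. The labels do not name litters, and the drug was given to the dam, and pups of a shared litter cannot be told apart from pups of separate litters. Each p-value therefore reflects how far single mice spread, which may include litter.

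DYRK1A is a kinase of neurons and their progenitors that phosphorylates itself on tyrosine while it folds and other proteins on serine and threonine afterwards. It counteracts calcineurin by phosphorylating NFAT factors, it helps to assemble the DREAM complex that keeps cells out of the cycle, and it primes some substrates for the kinase GSK3. Lithium inhibits GSK3 and the enzymes that recycle inositol, so the genotype and the drug meet in the same signalling routes.

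The mutated codon lies early in the protein, and its surroundings are shown to place it. In 4 of the 5 GENCODE vM21 transcripts of Dyrk1a long enough to hold it, codon 48 encodes isoleucine and is in exon 3, at chr16:94659628-94659630 on GRCm38 (plus strand). The stretch of 27 bases around it, chr16:94659616-94659642, reads as follows on the reference, with codon 48 in capitals.
Dyrk1a reference: cgccagccgagcATAagtgaccagcag
The labels give I48X and not the changed bases, so no mutant sequence is shown. A gene-level sum of reads does not separate the mutant from the normal transcript.

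Dyrk1a (chromosome 16, 94570010 to 94695517, plus strand) itself is the first check. Its level ran from 2141 to 2530 normalised counts in heterozygous lithium mice, with a median of 2330, and from 2120 to 2226 in wild-type lithium mice, with a median of 2190. The wild-type mice were closely spaced, and 8 of the 10 heterozygous mice lay above the highest of them. The difference was 0.09 ± 0.03 on the log2 scale (standard error, limma adjusted p = 0.121), and it did not pass the threshold of 0.05. Changes here and below are heterozygous minus wild type on log2(value + 1), a scale that understates the change of low genes.

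Recovered library totals ran from 24475034 to 33842466 counts, and heterozygous males (31240013 to 33842466) were all deeper than wild-type males (26275221 to 30426178). Markers of the labelled tissue were present in each lithium library: Slc17a7, the vesicular glutamate transporter of cortical projection neurons, stood at 32764 to 49320 normalised counts. RNA of olfactory bulb genes varied widely between libraries: the summed level of all 16 measured genes of that list ran from 6656 to 42265 normalised counts in heterozygous mice and from 6774 to 24297 in wild-type mice, and no member was at 0 in a lithium library. The mean of that list was above the highest wild-type mouse in 5 heterozygous mice, and heterozygous female replicate 1 had the lowest of all 20. Its part in the genotype differences was not tested directly, and values with the list mean as a covariate stand beside many of the results. Heterozygous lithium female replicate 1 also stood apart in myelin genes, with a list mean of -1.34 against -0.24 to 0.10 in the other heterozygous lithium females. In whole tissue, fewer cells of a type and less RNA per cell cannot be told apart.

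**Figure D1:**
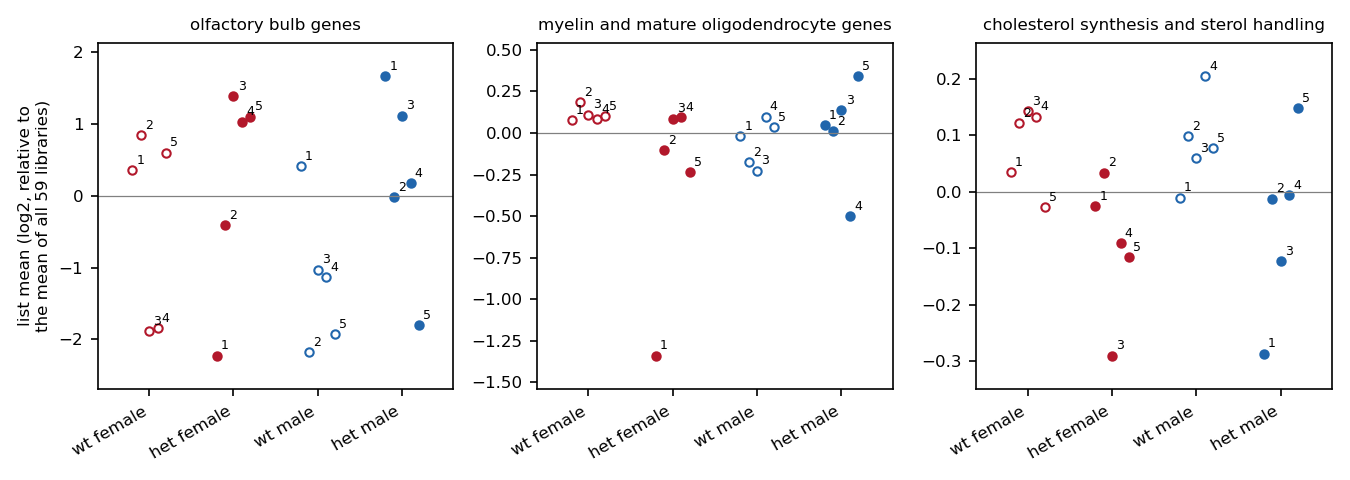
Mean log2 level of 3 gene lists in each lithium library, relative to the mean of all 59 libraries (y axis), by genotype and sex (x axis; wt, wild type, open points; het, heterozygous, filled points; numbers are replicates). Olfactory bulb genes spread over more than any other list shown, heterozygous female replicate 1 is lowest for myelin genes at -1.34, and cholesterol genes overlap between genotypes.

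Mxd4, Pnrc1 and Ucp2 rose in heterozygous mice under lithium in the limma test, which called no gene lower, and each was above the wild-type mean of its sex in 10 of 10 mice. They were 3 of 17384 genes tested (0.0173% for all calls and 0.0173% for higher calls). For lithium mice, counts above or below that mean, here and later, come from the mice that gave the p-values. Such counts are no separate support. Mxd4 encodes a partner of MAX that opposes MYC at E-box sequences. Pnrc1 encodes a small nuclear coactivator that also works with the mRNA decapping machinery, and Ucp2 a carrier of the inner mitochondrial membrane.

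Mxd4 (chromosome 5, 34173883 to 34187720, minus strand) ran from 3573 to 3928 normalised counts in heterozygous mice, with a median of 3753, and from 3008 to 3433 in wild-type mice, with a median of 3219. The lowest heterozygous mouse was above the highest wild-type mouse, and this was the only gene of all those tested whose 10 and 10 mice did not overlap (0.00575%). Mean levels were 3754 ± 131 and 3221 ± 146 (SD, n = 10 in each), a rise of 0.22 ± 0.03 (limma adjusted p = 0.00117). Mxd4 passed in each of the 20 fits that left out 1 library.

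Pnrc1 (chromosome 4, 33245423 to 33290163, minus strand) ran from 771 to 919.9 normalised counts in heterozygous mice, with a median of 843, and from 651 to 789.7 in wild-type mice, with a median of 723. The groups overlapped only where 2 heterozygous mice lay below the highest wild-type mouse. The rise was 0.24 ± 0.04 (limma adjusted p = 0.0342), from 722 ± 48.1 to 851 ± 48.6 (SD, n = 10 in each). With the olfactory bulb covariate it was 0.20 and missed the threshold (limma adjusted p = 0.0574).

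Ucp2 (chromosome 7, 100493337 to 100502020, plus strand) ran from 711 to 943 normalised counts in heterozygous mice, with a median of 834, and from 572 to 743 in wild-type mice, with a median of 650.4. Here too 8 of 10 heterozygous mice exceeded every wild-type mouse. Means were 819 ± 73.0 and 647 ± 56.6 (SD, n = 10 in each), a rise of 0.34 ± 0.06 (limma adjusted p = 0.0347), and 0.37 with the olfactory bulb covariate. Pnrc1 passed in 9 and Ucp2 in 7 of the 20 fits without 1 library. Over these fits the change ran from 0.22 to 0.25 for Pnrc1 and from 0.32 to 0.36 for Ucp2. Their limma adjusted p reached 0.0935 and 0.0994 there, so the calls lie near the threshold. The number of calls moved from 1 to 1140 over these fits: it was 1140 without heterozygous male replicate 5, 28 without heterozygous female replicate 1 and 6 without heterozygous female replicate 2. It was 1 without heterozygous female replicates 4 or 5, heterozygous male replicates 1, 2 or 3, wild-type female replicate 5, or wild-type male replicates 2, 3 or 5. edgeR's quasi-likelihood test called the same 3 genes. DESeq2 called 358, 183 higher and 175 lower.

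**Figure D2:**
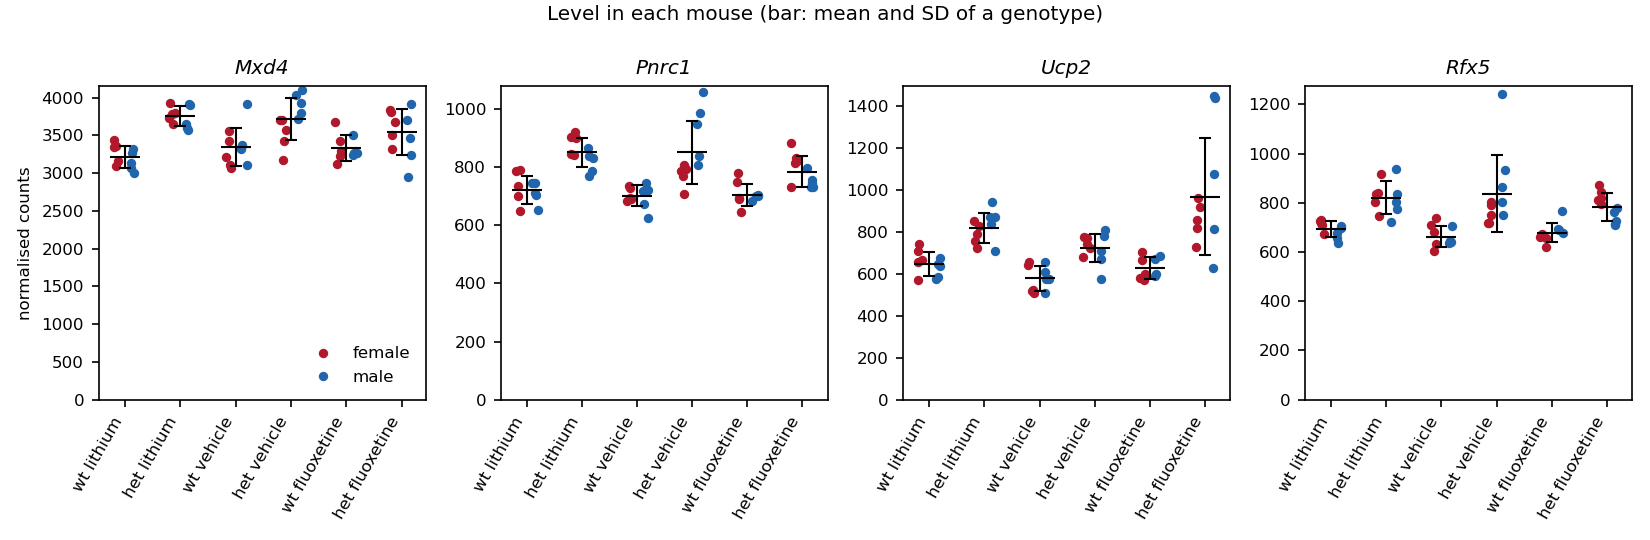
Normalised counts (y axis) of Mxd4, Pnrc1, Ucp2 and Rfx5 in each mouse by genotype and drug (x axis; wt, wild type; het, heterozygous; points are mice, bars the mean and SD of all mice of a genotype and drug). Under lithium the Mxd4 points do not overlap between genotypes, and the other genes overlap in a few mice.

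The promoters of the called genes are shown because these genes passed the limma threshold, all with a rise. Whether they vary together over mice or share a regulator was not tested. Each is the stretch of 250 bases before the RefSeq start site, read 5′ to 3′ on the gene's strand (GRCm38.p6), with matches to either searched motif in capitals. The motifs were the E-box CACGTG, the same on both strands, which MAX partners bind, and TCTCGCGA on either strand (TCGCGAGA), part of the palindrome reported at promoters that DYRK1A occupies. Coordinates are chr5:34187711-34187960 (minus strand), chr4:33248788-33249037 (minus strand) and chr7:100493108-100493357 (plus strand), in this order.
Mxd4: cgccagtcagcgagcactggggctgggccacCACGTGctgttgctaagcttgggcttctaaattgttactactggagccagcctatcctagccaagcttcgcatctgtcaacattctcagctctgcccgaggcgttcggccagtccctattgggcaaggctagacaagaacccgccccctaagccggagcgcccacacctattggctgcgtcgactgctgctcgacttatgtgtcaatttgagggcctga
Pnrc1: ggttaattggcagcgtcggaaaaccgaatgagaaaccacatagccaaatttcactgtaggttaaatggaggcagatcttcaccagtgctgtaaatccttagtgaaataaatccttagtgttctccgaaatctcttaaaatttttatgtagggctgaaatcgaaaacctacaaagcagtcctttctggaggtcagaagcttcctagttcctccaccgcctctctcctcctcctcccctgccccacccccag
Ucp2: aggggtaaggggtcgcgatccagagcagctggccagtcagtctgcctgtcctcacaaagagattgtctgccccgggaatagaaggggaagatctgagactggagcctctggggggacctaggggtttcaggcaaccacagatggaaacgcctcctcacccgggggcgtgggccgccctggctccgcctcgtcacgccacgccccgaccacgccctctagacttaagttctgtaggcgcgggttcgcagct
The Mxd4 promoter held 1 E-box, whose first base is 219 bases before the start site, and the Pnrc1 and Ucp2 windows held neither motif. Of 32851 promoters of this length in the table, 6.02% held the E-box and 0.858% the longer motif. Among the 12469 tested genes matched to a promoter by symbol, the median change was -0.0091 in the 1169 with an E-box and -0.006 in those without. The 224 genes with the longer motif had a median of -0.0039, against -0.0065 in those without. Of the 12 genes of smallest p named here, 11 matched a promoter: the E-box was in those of Mxd4 and Atf7, and the longer motif in that of Atf7.

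The next 9 genes by smallest p did not pass, with limma adjusted p values of 0.0537 to 0.121. Rfx5, a factor that binds promoters of MHC class II genes, ran from 722 to 936.5 normalised counts in heterozygous mice (median 819.5) and from 639 to 731 in wild-type mice (median 702). All but 1 of the heterozygous mice lay above the wild-type range. Its difference was 0.24 ± 0.04. Dgcr8, the RNA-binding partner of Drosha in microRNA processing, was at 1153 to 1266 (median 1240) against 1018 to 1182 (median 1100), a difference of 0.16 ± 0.03. Rcan2, a protein inhibitor of calcineurin, was at 3841 to 4884 normalised counts in heterozygous mice (median 4212) and at 4573 to 5086 in wild-type mice (median 4909). In 9 of 10 heterozygous mice Rcan2 was below every wild-type mouse, and the difference was -0.20 ± 0.04. The others were Ctdsp2, a phosphatase of RNA polymerase II (0.17 ± 0.03), Hdhd5 (0.15 ± 0.03), the zinc finger factor Hivep1 (-0.17 ± 0.03), Atf7, a factor of the CREB and ATF family (0.12 ± 0.02), Trmt12, an enzyme of tRNA modification (-0.28 ± 0.06), and Parm1 (-0.27 ± 0.06). In all 9 the 10 heterozygous mice lay on 1 side of the wild-type mean of their sex, in the same mice by whose p these genes were picked.

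The vehicle and fluoxetine mice are other animals, so they give the genotype comparison in mice that the choice of these genes did not use. Olfactory bulb genes differed by genotype there too, with a list median of 1.42 under vehicle and -0.38 under fluoxetine, against 1.0 under lithium. Limma called 0 genes in either drug group alone, with 4686 and 974 at an unadjusted p under 0.05. With the olfactory bulb covariate 1730 and 1176 were at that p, and 0 and 1 were called. The values below are without that covariate, so the vehicle mice are no comparison free of the olfactory bulb difference. Mxd4 differed by 0.15 ± 0.04 under vehicle (unadjusted p = 0.00185, adjusted p = 0.102) and by 0.09 ± 0.05 under fluoxetine (unadjusted p = 0.0913, adjusted p = 0.738). Pnrc1 differed by 0.27 ± 0.06 (unadjusted p = 0.000104, adjusted p = 0.0721) and 0.16 ± 0.04 (unadjusted p = 0.00129, adjusted p = 0.738). Ucp2 differed by 0.32 ± 0.07 (unadjusted p = 7.9e-05, adjusted p = 0.0721) and 0.57 ± 0.13 (unadjusted p = 0.000213, adjusted p = 0.738). These genes were thus higher in heterozygous mice under each drug, without passing the adjusted threshold outside lithium. In single mice, Pnrc1 was above the wild-type mean of its sex in 10 of 10 heterozygous mice under vehicle and 10 of 10 under fluoxetine, Ucp2 in 9 and 9, and Mxd4 in 9 and 7. Of the 12 genes of smallest p, 12 had the same sign under vehicle, 4 of them at an unadjusted p under 0.05. Under fluoxetine 10 had the same sign, 6 of them at that p, and Hdhd5 (-0.01) and Trmt12 (0.00) did not. Of all genes, 13.4% were higher and 13.6% lower at that p under vehicle, and 2.28% and 3.32% under fluoxetine. How often all genes keep their sign between drugs was not counted. Dyrk1a differed by 0.06 ± 0.02 under vehicle and 0.22 ± 0.09 under fluoxetine.

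**Figure D3:**
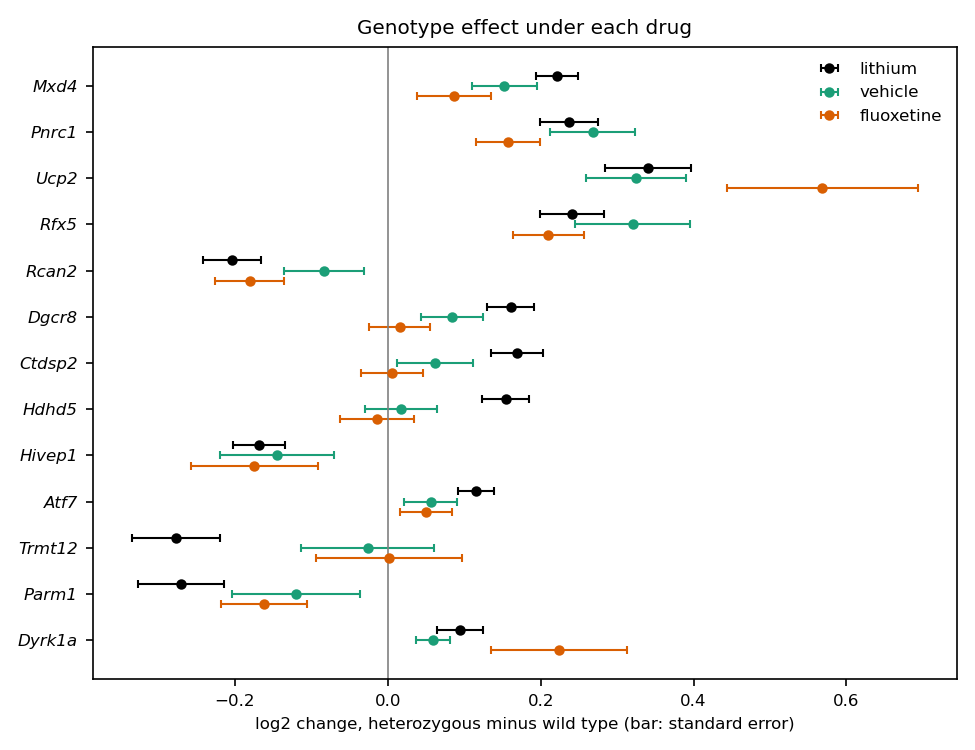
Log2 change, heterozygous minus wild type, with its standard error (x axis), for the 12 genes of smallest p under lithium and Dyrk1a (y axis), under lithium, vehicle and fluoxetine. Mxd4, Pnrc1, Ucp2 and Rfx5 lie above 0 under each drug, and Hdhd5 and Trmt12 lie near 0 outside lithium.

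Whether the genotype difference itself changed with lithium was tested as the lithium minus vehicle difference of the 2 effects, over 40 libraries. No gene passed (0 of 17731, 0%), with 677 at an unadjusted p under 0.05, and edgeR and DESeq2 called 0 as well. For the called genes the difference of effects was 0.07 ± 0.05 for Mxd4, -0.03 ± 0.06 for Pnrc1 and 0.02 ± 0.09 for Ucp2. The smallest p belonged to Tfcp2l1, a transcription factor that was 0.23 ± 0.09 under lithium and -0.25 ± 0.08 under vehicle, a difference of 0.48 ± 0.11 (limma adjusted p = 0.997). The zinc finger gene Zfp784 was at -0.17 ± 0.08 and 0.32 ± 0.09. Dio2, the enzyme that activates thyroid hormone, was at 0.06 ± 0.07 and -0.38 ± 0.09. The other genes of smallest p were Suv39h1, Ddx28, Cep128, Dnajc24 and Snrpf, with differences of effects of -0.36 (Ddx28) to 0.45 (Cep128). The fluoxetine difference was not tested against lithium.

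By sex, limma called 0 genes in females (0%) and 0 in males (0%), with 1564 and 2769 genes below an unadjusted p of 0.05, where edgeR called 0 and 0 and DESeq2 5 and 2. Mxd4 was 0.20 ± 0.04 in females and 0.24 ± 0.04 in males, Pnrc1 0.27 ± 0.05 and 0.20 ± 0.05, and Ucp2 0.24 ± 0.08 and 0.44 ± 0.08. For Ucp2 the female minus male difference was -0.19 ± 0.11 and did not pass (limma adjusted p = 0.998). Among other genes of smallest p in females were Foxc1, a factor of meningeal and vascular development (0.40 ± 0.08, against 0.00 ± 0.08 in males), the Mediator subunit Med1 (0.14 ± 0.03) and the secreted peroxidase Gpx3 (-0.87 ± 0.19). In males they were Dmap1 (0.32 ± 0.06), Dcaf7 (0.20 ± 0.04), the centrosome protein Nde1 (0.33 ± 0.07) and Fxyd1, a regulator of the sodium pump (0.49 ± 0.12). None of these passed. The female minus male effect passed for 0 genes (0%, 466 at an unadjusted p under 0.05; edgeR 0, DESeq2 2). The smallest p was that of Kxd1, a protein of lysosome positioning, at -0.22 ± 0.05 in females and 0.18 ± 0.05 in males (limma adjusted p of the difference 0.334).

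The 35 gene lists are described by counts. No member passed in limma or in edgeR, while DESeq2 called 16 members higher and 18 lower. Over all 17380 genes it tested, DESeq2 called 183 higher and 175 lower. At an unadjusted limma p under 0.05, 1838 of all genes tested were higher (10.6%) and 2591 lower (14.9%). With the olfactory bulb covariate these were 784 (4.51%) and 1149 (6.61%). List counts at that unadjusted p are to be read against these shares. Leaving out 1 library moved the shares themselves, from 6.69% higher and 10.5% lower without heterozygous male replicate 1 to 15% higher and 19% lower without heterozygous female replicate 1. The shares were 13.4% higher and 13.6% lower under vehicle, and 2.28% and 3.32% under fluoxetine. The median change over all genes was -0.01.

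Among DYRK and related kinases, 6 of 12 measured members were higher at an unadjusted p under 0.05 and 1 was lower, with a median of 0.08, and 5 were higher and 0 lower with the olfactory bulb covariate. Dcaf7, the scaffold protein that binds DYRK1A and DYRK1B, ran from 8746 to 10284 normalised counts in heterozygous mice (median 9223) and from 8051 to 9041 in wild-type mice (median 8251). The ranges overlapped, although all 10 heterozygous mice were above the wild-type mean of their sex. Its difference was 0.13 ± 0.03 (limma adjusted p = 0.121) under lithium, 0.14 under vehicle and 0.07 under fluoxetine. The paralogue Dyrk1b (0.12 ± 0.03) and the splicing factor kinases Clk1 (0.17 ± 0.05) and Clk2 (0.14 ± 0.04) were members at that unadjusted p too. DESeq2 called 4 members higher, Dyrk1a among them (adjusted p = 0.0443), where it called 183 of 17380 genes higher. Over the fits without 1 library the count of higher members was 6 to 7.

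Of the routes that DYRK1A feeds, 14 calcineurin and NFAT genes had a median of 0.01, with 2 higher and 5 lower (0 and 1 with the olfactory bulb covariate). Among them were Nfatc1 (0.33 ± 0.12), the calcineurin subunits Ppp3cb (-0.15 ± 0.06) and Ppp3r1 (-0.25 ± 0.09), and Rcan2. Rcan1, another inhibitor of calcineurin, was at -0.09 ± 0.05. Of 20 genes of the DREAM complex and cell cycle brakes, 18 were above 0, 5 at an unadjusted p under 0.05 and 0 lower, with a median of 0.07 and 3 higher with the covariate. Rbl1, the pocket protein p107, was at 0.36 ± 0.09, Cdk4, a kinase of cell cycle entry, at 0.16 ± 0.04, Mybl2 at 0.40 ± 0.14 and Rb1 at 0.13 ± 0.05. These members include genes that brake and genes that drive the cycle.

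For the targets of lithium, 38 genes of the GSK3 and beta-catenin pathway had 9 higher, 6 lower and a median of 0.04. With the olfactory bulb covariate 2 were higher and 3 lower. Gsk3b, the kinase itself, was at -0.12 ± 0.04 (limma adjusted p = 0.126), the scaffold Apc at -0.19 ± 0.05, the receptor Fzd2 at 0.21 ± 0.07, the ligand Wnt5a at 0.43 ± 0.16 and beta-catenin, Ctnnb1, at -0.04 ± 0.03. Of 21 inositol phosphate enzymes 1 was higher and 5 were lower, with a median of -0.05 (0 and 5 with the covariate). Among them were the phospholipase Plcb1 (-0.20 ± 0.05), the calcium channel Itpr1 (-0.27 ± 0.07) and the lipid kinase Pi4ka (-0.09 ± 0.03). Impa1, the monophosphatase that lithium inhibits, was at -0.06 ± 0.02. AKT and mTOR signalling had 5 higher and 4 lower of 29 (3 and 1 with the covariate), with 14 above 0 and a median of -0.003. The mTOR inhibitors Ddit4 (0.37 ± 0.10) and Sesn2 (0.21 ± 0.07) were among the 5 higher members, in a list whose members went both ways. Immediate early genes had 2 higher and 4 lower of 29, with a median of 0.04. Under vehicle the median was 0.17, with 8 higher and 1 lower (13.4% and 13.6% of all genes). The difference between drugs was not tested for this list. With the covariate 1 was higher and 1 lower under lithium (median -0.04). Leaving out 1 library moved the lithium median from -0.02 (without heterozygous female replicate 2) to 0.09 (without wild-type male replicate 3), the higher members from 1 to 4 and the lower members from 1 to 6. Fos (0.18 ± 0.20), Fosb (0.21 ± 0.19), Arc (0.23 ± 0.25), Nr4a2 (-0.18 ± 0.20) and Zbtb16 (-0.08 ± 0.08) were at unadjusted p values of 0.296 to 0.372.

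All 24 measured members of cholesterol synthesis and sterol handling were below 0, 18 of them at an unadjusted p under 0.05, with a median of -0.16, and 12 of 24 with the olfactory bulb covariate (median -0.10). Stard4, a cytosolic sterol carrier, ran from 644 to 909 normalised counts in heterozygous mice (median 822) and from 831 to 1076 in wild-type mice (median 951). The ranges overlapped, yet all but 1 of the wild-type mice exceeded every heterozygous mouse. Its difference was -0.28 ± 0.06 (limma adjusted p = 0.121). Hmgcs1, the enzyme that makes HMG-CoA, was at 6182 to 10698 normalised counts (median 8883) against 9476 to 11654 (median 10493), with 8 heterozygous mice below the wild-type range, a difference of -0.29 ± 0.08. Srebf2, the sterol-sensing transcription factor of the pathway, was at -0.11 ± 0.03, and the isomerase Idi1 at -0.20 ± 0.06. The count of lower members was 17 to 18 over the fits without 1 library, and 18 without heterozygous female replicate 1. Under vehicle 13 members were lower at that p with a median of -0.16, and under fluoxetine 0 with a median of -0.02, against the 13.6% and 3.32% of all genes that were lower there. Members of a pathway share regulation, so they are not independent counts.

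**Figure D4:**
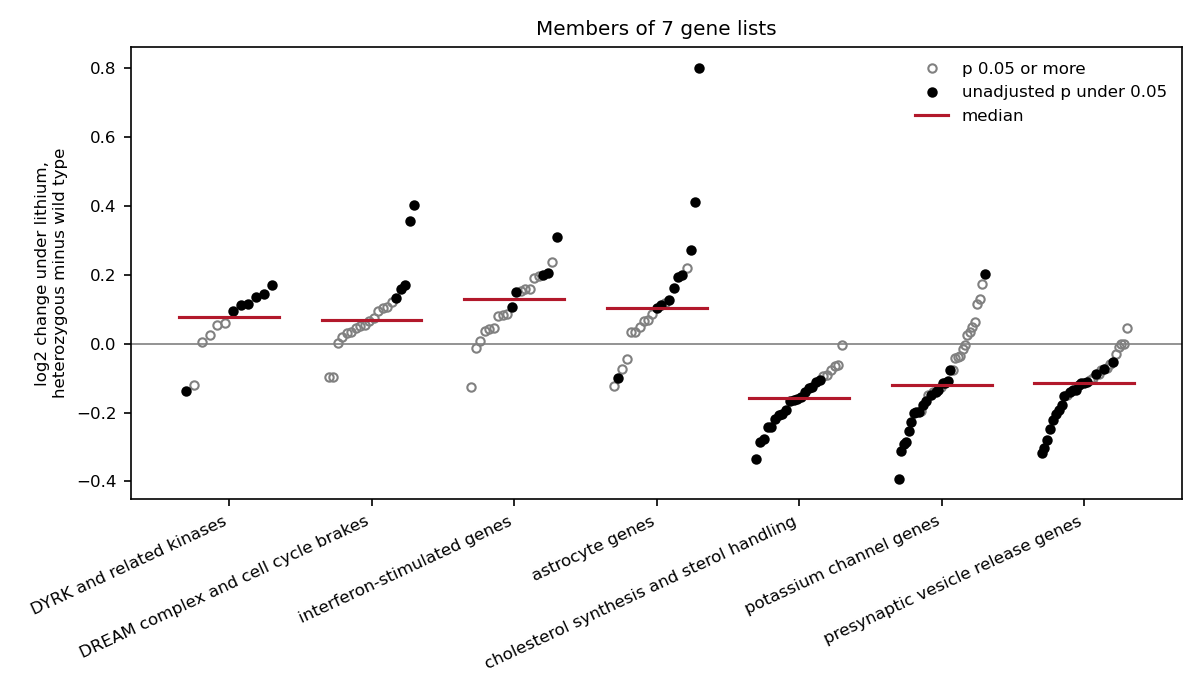
Log2 change under lithium, heterozygous minus wild type (y axis), of each measured member of 7 gene lists (x axis), sorted within a list. Filled points have an unadjusted p under 0.05 and red bars are medians. All 24 cholesterol members lie below 0, and the DYRK, DREAM, interferon and astrocyte members lie mostly above.

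Genes of neuronal signalling were mostly below 0. Of 31 presynaptic vesicle release genes 19 were lower and 0 higher at an unadjusted p under 0.05, with a median of -0.11. With the olfactory bulb covariate it was 11 of 31, with a median of -0.06. Members included the SNARE proteins Vamp1 (-0.30 ± 0.10) and Snap25 (-0.21 ± 0.07), the calcium sensor Syt1 (-0.14 ± 0.05) and complexin 2, Cplx2 (-0.22 ± 0.07). Potassium channel genes had 18 lower and 1 higher of 36 (median -0.12; 10 lower and 0 higher with the covariate, median -0.05). Kcna2, a channel of axons, ran from 6914 to 8423 normalised counts in heterozygous mice (median 7473) and from 8106 to 9323 in wild-type mice (median 8534), with 7 heterozygous mice below the wild-type range. Its difference was -0.18 ± 0.04, and that of the fast-firing channel Kcnc2 was -0.23 ± 0.05. Glutamate receptors and their scaffolds had 16 lower and 1 higher of 40 (median -0.08; 5 and 0 with the covariate), with the scaffold Dlgap1 (-0.13 ± 0.03) and the receptor Grm5 (-0.22 ± 0.07). The count of lower glutamate genes ran from 8 (without heterozygous female replicate 3, where 11.3% of all genes were lower) to 25 (without heterozygous female replicate 1, where 19% were). With quantile normalization the median of this list was -0.02.

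Of 12 serotonin receptors 5 were lower and 0 higher (median -0.16; 2 lower with the covariate), Htr1a (-0.34 ± 0.10), Htr4 (-0.71 ± 0.23) and Htr2c (-0.53 ± 0.20) among them. Htr4 is scarce here, at 15.2 and 23.5 normalised counts on average. Neurotrophins and receptors had 4 lower of 8 (median -0.16; 2 with the covariate, and 2 without heterozygous female replicate 3), with Bdnf at -0.24 ± 0.11. In 10 of the 20 fits without 1 library the neurotrophin count moved by over 1.5 times. Heat shock chaperones had 7 lower and 1 higher of 14, and 6 and 1 with the covariate. The lower ones included Hspa4 (-0.12 ± 0.03), its paralogue Hspa4l (-0.17 ± 0.04) and Hsp90aa1 (-0.13 ± 0.04), and the higher one was the co-chaperone Bag3 (0.36 ± 0.10), above the wild-type mean of its sex in 10 of 10 mice.

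Among cortical cell types, the interneuron list had 10 lower and 1 higher of 28 (median -0.11; 9 and 0 with the covariate, median -0.05). Sst, the neuropeptide that defines a main class of interneurons, ran from 1968 to 3847 normalised counts in heterozygous mice (median 2814) and from 3103 to 4199 in wild-type mice (median 3788). In 6 heterozygous mice it lay below the wild-type range, and the difference was -0.41 ± 0.10 under lithium (limma adjusted p = 0.121), -0.56 under vehicle and -0.14 under fluoxetine. Lhx6, a factor of the same lineage, was at -0.34 ± 0.10 and the related peptide Cort at -0.32 ± 0.10. Projection neuron and layer genes had 7 lower and 0 higher of 26 (median -0.12; 5 and 0 with the covariate), with the deep-layer factor Fezf2 at -0.38 ± 0.13. Without heterozygous female replicate 1 this list had 14 lower and 3 higher, where 19% of all genes were lower and 15% higher.

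Astrocyte genes had 9 higher and 1 lower of 21 (median 0.10), and 7 and 1 with the covariate (median 0.08). Under vehicle the median was 0.01, with 4 higher and 2 lower (13.4% and 13.6% of all genes). The difference between drugs was not tested for this list. Gja1, the gap junction protein connexin 43, ran from 5357 to 6737 normalised counts in heterozygous mice (median 5936) and from 4978 to 5674 in wild-type mice (median 5288). All 10 heterozygous mice were above the wild-type mean of their sex, and the difference was 0.16 ± 0.04. Gfap, the intermediate filament that marks reactive astrocytes, was at 3122 to 6252 (median 4201) against 2532 to 4092 (median 3043), a difference of 0.41 ± 0.11. Id3 was at 0.27 ± 0.09, and S100b was the lower member at -0.10 ± 0.03. The summed level of the 21 genes overlapped almost fully, at 210330 to 250837 and 209385 to 234449 normalised counts.

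Interferon-stimulated genes had 18 of 20 above 0, 5 higher and 0 lower at an unadjusted p under 0.05 (median 0.13; 4 higher with the covariate), among them the antiviral gene Oasl2 (0.31 ± 0.09), the transcription factor Irf9 (0.15 ± 0.05) and Lgals3bp (0.21 ± 0.09). Ribosomal protein genes had 77 of 81 above 0 with a median of only 0.05, and 16 higher, or 3 with the covariate. Over the fits without 1 library that count ran from 7 (without heterozygous female replicate 3) to 26 (without heterozygous female replicate 2). Myelin genes had a median of -0.20 with 3 lower and 2 higher of 28. In females the median was -0.50 with 14 lower and 0 higher (4.93% and 4.07% of all genes). In males it was 0.08 with 0 lower and 2 higher (9.31% and 6.62%), a difference between the sexes that was not tested for the list. The female values include heterozygous female replicate 1, whose list mean was -1.34. The other heterozygous females were at -0.24 to 0.10 and wild-type females at 0.08 to 0.19. A female median without that mouse is not given here. The pooled median was -0.05 without heterozygous female replicate 1, and with all libraries and the olfactory bulb covariate it was -0.32. Under vehicle it was 0.21, and the difference between drugs was not tested for the list.

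**Figure D5:**
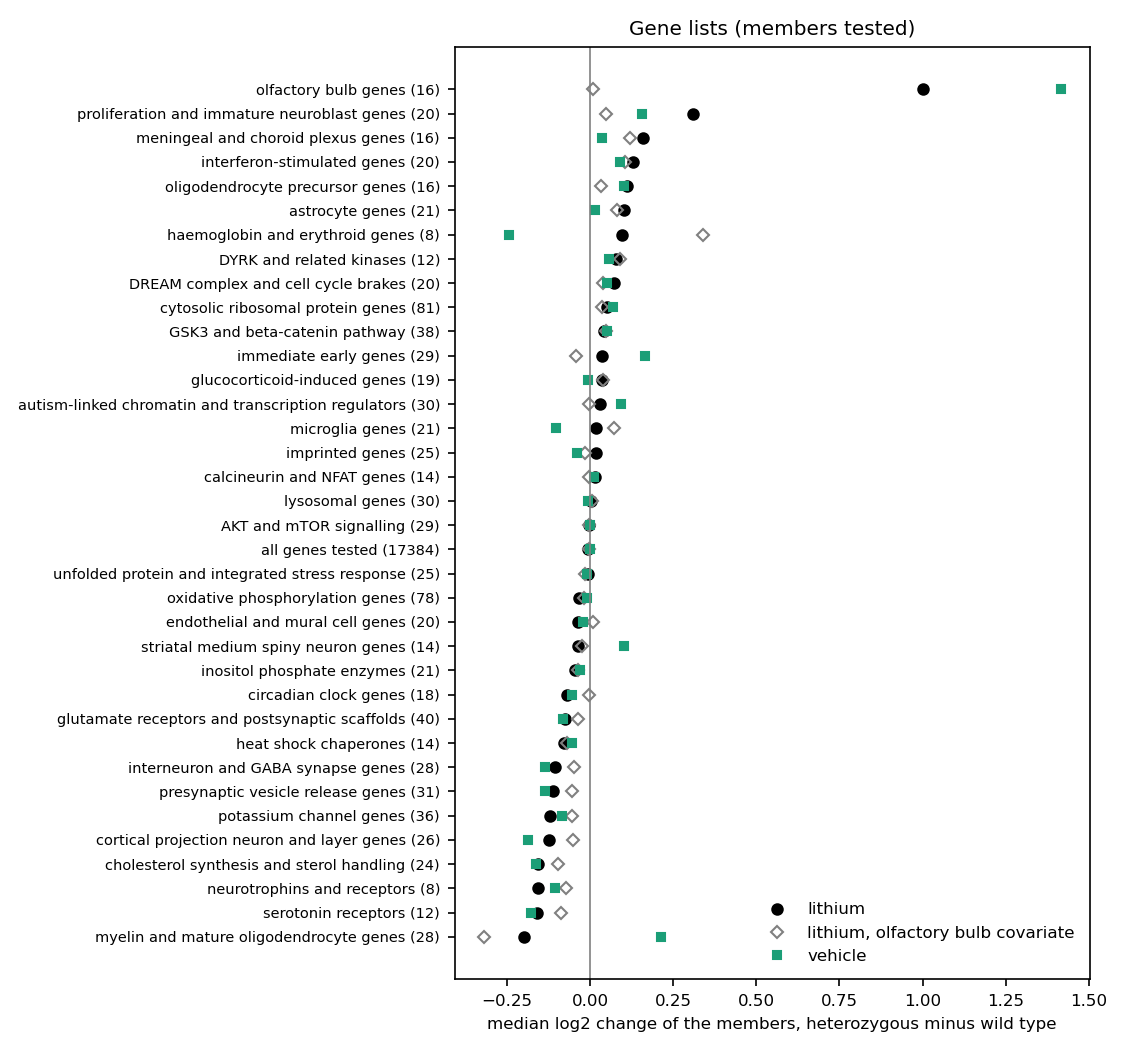
Median log2 change of the measured members, heterozygous minus wild type (x axis), for each gene list and for all genes (y axis, number of members in parentheses), under lithium, under lithium with the olfactory bulb covariate, and under vehicle. The olfactory bulb list is farthest from 0 at 1.0 and 1.42, cholesterol genes are at -0.16 under lithium and under vehicle, and myelin genes are at -0.20 and 0.21.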

How the data were processed

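RNA was sequenced from prefrontal cortex with stranded polyadenylated libraries, per the labels' protocols. Salmon 0.11.2, R 3.6.0 and DESeq2 1.19.11 with GRCm38 are named in the submitters' processing notes, without role or order. The authors deposited 1 table of normalized values, whose unit is a scaled read signal (a count over its size factor). Division by a library's smallest step returned whole reads, within 0.01, for 100% of values. The 17384 genes of 18088 that reached 10 in 4 or more of the 20 libraries were tested as log2(value + 1) with limma 3.58.1 (trend, R 4.3.3), a sex term and 17 residual degrees of freedom, and Benjamini-Hochberg adjustment at 0.05. Contrasts by sex used 4 group means (16 degrees of freedom). The lithium minus vehicle test used 8 group means.

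edgeR 4.0.16 and DESeq2 1.42.0 on recovered reads were alternatives, as were a pseudocount of 5, other filters, TMM, quantile normalization, a replicate block, array weights, covariates, all 59 libraries and leaving out each library. On simulated counts for this comparison, 100 genes were changed at each of 2 folds among 17384. Limma recovered 67% of those changed 1.25-fold and 79% of those changed 1.5-fold, with 10 false calls. Genes were drawn independently there, without variation shared within a library, so these rates cannot be taken as those of the real libraries.

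Members, gene lists and tests were chosen with earlier results of these data known. The rule for named genes took the 12 of smallest p under lithium, at any level, and 8 in each other contrast. Both left out predicted genes, Y-linked genes and Xist. The rule also took 4 of a list described, Dyrk1a and a few set genes. C4b was added after its values were seen. Promoters came from RefSeq, coordinates from GENCODE vM21. Replicates differed by more than counting noise, with a chi-square per gene of 5.26 to 52.9 over 40 pairs. 11 identifiers had no symbol.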

Additional observations from a re-analysis of the deposited data

Results flagged for a closer look

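Of 156 groups of 5 mice checked over the named genes and lists, 11 held a mouse whose gap to its nearest neighbour exceeded Dixon's critical value of 0.71 times the range, where chance gives about 1 in 20. Ctdsp2 stood at 2669 normalised counts in wild-type lithium female replicate 1, above the other wild-type females. Hivep1 stood at 2673 in wild-type male replicate 5, the highest of its group. Trmt12 was at 229 in wild-type male replicate 1, the lowest of its group. Parm1 was at 1992 in wild-type female replicate 4, the highest, and at 1566 in wild-type male replicate 1, the lowest. Dcaf7 was at 8718 in wild-type male replicate 1, where the other wild-type males were at 8051 to 8242. Stard4 was at 1076 in wild-type male replicate 4, where the others were at 943.7 to 969.5. The myelin list mean was -1.34 in heterozygous female replicate 1 and 0.188 in wild-type female replicate 2, and the wild-type females otherwise lay within 0.0784 to 0.11. The striatal list mean was -0.374 in heterozygous female replicate 1. The interneuron list mean was 0.0929 in wild-type male replicate 3. Mxd4, Pnrc1 and Ucp2 had no such mouse in a lithium group.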

How the results depend on the processing

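The count of 3 genes called was 3 with a pseudocount of 5, without a filter, with TMM factors and with edgeR, 4 with a filter of 100 and with quantile normalization, and 2 with the olfactory bulb covariate and with all 59 libraries. It was 6 with the myelin covariate, 6 with the striatal covariate, 358 with DESeq2 and 3743 with array weights, and the cause was not tested. With array weights, weights ran from 0.331 (heterozygous female replicate 1) to 1.78 (wild-type male replicate 4). Leaving out 1 library gave 1 to 1140 calls. DESeq2 called 5 genes in females, 2 in males and 2 for the female minus male effect, and leaving out 1 library gave 0 to 1 in males. With the replicate block 3 genes were called, Mxd4, Rcan2 and Pnrc1. The labels do not say whether equal replicate numbers pair mice, and 10 pairs are too few to settle it. The correlation over these pairs ran from -0.357 to 0.426, 3 were over 0.1, and 2 mice matched their own number best. Mxd4 passed under 13 of 13 alternatives, Pnrc1 under 12 and Ucp2 under 11, and no named gene changed sign in those checked. Sizes did change: over the 13 alternatives Gsk3b ran from -0.12 to -0.05 and Sst from -0.44 to -0.25. Gfap ran from 0.25 to 0.46 and C4b from 0.39 to 0.69. Of 455 list medians under alternatives 450 were counted as the same, a label that still allowed large shifts. With the olfactory bulb covariate the median of olfactory bulb genes, whose mean is the covariate, went from 1.0 to 0.01. That of proliferation and neuroblast genes went from 0.31 to 0.05, and that of immediate early genes from 0.04 to -0.04. Counted as moved were AKT and mTOR (0.03), glutamate receptor (-0.02) and lysosomal genes (0.04) with quantile normalization. So were potassium channel (-0.05) and interneuron genes (-0.05) with the olfactory bulb covariate. The list counts without each library were chosen after seeing the data. With 10 mice a side the smallest change called by limma without alternatives was 0.22, and DESeq2 called smaller ones.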

Other observations

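The lists not described above are given by their counts, without the olfactory bulb covariate. Clock genes had 2 higher and 1 lower of 18 at an unadjusted p under 0.05, with Cry1 at 0.17 ± 0.06. Glucocorticoid-induced genes had 5 higher and 1 lower of 19 (2 higher without heterozygous female replicate 5 and 3 lower without heterozygous female replicate 2), with the chaperone Fkbp5 at 0.17 ± 0.05 and the receptor Nr3c1 at -0.23 ± 0.08. The higher count moved by over 1.5 times in 11 of 20 fits without 1 library. Unfolded protein response genes had 2 higher and 3 lower of 25, lysosomal genes 1 and 5 of 30, imprinted genes 2 and 6 of 25, and autism-linked chromatin regulators 5 and 6 of 30, with Pogz at 0.15 ± 0.05 and Satb1 at -0.22 ± 0.06. Without heterozygous female replicate 1, 11 autism-linked genes were higher, where 15% of all genes were. Oxidative phosphorylation genes had 1 higher and 9 lower of 78, and 24 lower without wild-type male replicate 1, where 16.6% of all genes were lower. Oligodendrocyte precursor genes had 4 higher and 1 lower of 16, with Bmp4 at 0.32 ± 0.08, above the wild-type mean of its sex in 10 of 10 mice.

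Microglia genes had 2 higher and 0 lower of 21, against 1 and 6 under vehicle (13.4% and 13.6% of all genes), a difference that was not tested. Endothelial and mural genes had 1 higher and 1 lower of 20, erythroid genes 0 and 0 of 8, striatal genes 1 and 1 of 14, meningeal and choroid plexus genes 3 and 0 of 16, and proliferation and neuroblast genes 3 and 1 of 20. Without heterozygous female replicate 1 the last of these had 11 higher, and oligodendrocyte precursor genes 7 (15% of all genes). Olfactory bulb genes had 2 higher and 0 lower of 16 with a median of 1.0, with 0 higher without heterozygous female replicate 3 (7.56% of all genes higher) and 15 without heterozygous female replicate 1 (15%), and under vehicle the median was 1.42.

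C4b, a complement component, was picked after its values were seen. It ran from 370.2 to 878 normalised counts in heterozygous lithium mice (median 519) and from 264 to 460.3 in wild-type lithium mice (median 333), and 8 heterozygous mice were above the wild-type range. The difference was 0.62 ± 0.14 (limma adjusted p = 0.121) under lithium, 0.52 under vehicle and 0.53 under fluoxetine.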
